A study of Mus musculus with 6 samples.

Results

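Enteroendocrine cells are the hormone-secreting cells of the gut epithelium, and their transcripts were followed here through 10 genes: the peptide hormone genes Gcg, Insl5, Pyy, Sct, Cck and Tac1, the serotonin synthesis gene Tph1, the granin genes Chga and Chgb, and the prohormone-processing gene Cpe. The members were every probe set annotated to exactly 1 of these symbols in the platform's probe-to-gene table. That mapping used no measured value, but the genes themselves were chosen with earlier results of these data known. All 10 genes had a probe set, and 11 of the 22626 probe sets other than controls belonged to them, since Cpe had 2. The table named 12393 genes in all.

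Enteroendocrine cells lie scattered among the absorptive and goblet cells of the crypt and arise from the same stem cells. In the colon the main classes are L cells, which make peptides from proglucagon together with peptide YY and, in the distal colon, insulin-like peptide from Insl5, and enterochromaffin cells, which make serotonin and often substance P from Tac1. Hormones are stored in dense-core granules whose matrix is built from granins, and most are cut from larger precursors inside those granules by convertases and carboxypeptidases.

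The samples were colonic crypts, the epithelial glands of the colon, from male mice heterozygous for the Lgr5-lacZ reporter, a genotype that all groups shared. Messenger RNA was measured on 6 Affymetrix arrays, 2 for each of 3 groups, and every array carried RNA pooled from 2 mice. Tumor crypts came from 12 adenomas per array. Those mice received the carcinogen azoxymethane (AOM) by intraperitoneal injection at 12.5 mg per kg body weight when 6 to 8 weeks old. After 5 days they drank 2% dextran sulfate sodium (DSS), a polysaccharide that injures the colonic epithelium, for 5 days and then regular water for 14 days. The cycle was repeated with 1.5% and then 1.0% DSS, and the label places the adenomas 90 days after AOM. DSS crypts came from distal colons of mice aged 6 to 8 weeks on day 2 of 1% DSS, and control crypts from distal colons of untreated mice of that age on drinking water. The mice with tumors were thus older than the others, so age, carcinogen, earlier DSS cycles and adenoma cannot be told apart. The colon region of the adenomas is not given here, so a difference in region cannot be told apart either. The labels call the 2 arrays of a group biological replicates, and each adenoma pool mixes tumors of 2 animals, so differences among tumors were not measured.

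The median intensity of an array ranged up to 131 (tumor replicate 2), with 94.2 the lowest (DSS replicate 1), in the MAS5 intensity units of the deposited table, a linear scale on which each array had been brought to a trimmed mean near 500.2. All 12 of 12 markers of epithelium in general lay above the array median on each of the 6 arrays. Control probe sets at the 3' and 5' ends of actin, whose log2 ratio tells of RNA quality, gave 0.95 and 1.04 in tumor crypts against 1.20 to 1.63 in the other groups, and those of Gapdh gave -0.05 and 0.04 against 0.07 to 0.23. Tumor arrays thus had the lowest ratios, and the part of this difference in the results below was not tested. Poly-A control transcripts had mean intensities of 1313.7 on DSS replicate 1 and 874 on control replicate 1, against 351 to 443 on the other 4 arrays.

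Transcripts of the L cell peptide genes Gcg, Insl5 and Pyy and of the granins Chga and Chgb fell in tumor crypts against control crypts, those of Gcg and Insl5 by the most. Of the 10 genes, 8 lay above the array median on at least 2 arrays and were tested, and these 5 passed at a limma adjusted p under 0.05, with none called higher. Sct, Cpe and Tac1 did not pass in that comparison, and Tac1 and the untested Cck had higher values in tumor than in control crypts. Over all 7456 genes tested, 9.74% were called lower, 12.8% higher and 22.5% were called in either direction (954 higher and 726 lower, a split that became 804 and 933 with arrays centred on their medians and 879 and 908 with quantile normalization). The tested members had a median log2 change of -1.03, against 0.046 for all genes. Sct passed the filter on low values only through the control arrays, so this median and count describe the tested genes and not the whole set. Against DSS crypts, Cpe also fell and the count was 6 of 8, where 11.3% of all genes were called lower and 26.2% were called in either direction (1107 higher and 843 lower, or 915 and 1055 with median centring). The median log2 change was -1.37 in that comparison, against 0.045 for all genes. Both comparisons share the tumor arrays, and values are given side by side below without reading them as independent. The arrays measured crypts in bulk, so fewer enteroendocrine cells and less hormone RNA per cell cannot be told apart. An exact test of 2 arrays against 2 cannot go below a 2-sided p of 0.333, so p-values here come from limma, which shares its estimate of the spread across genes and groups.

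**Figure D1:**
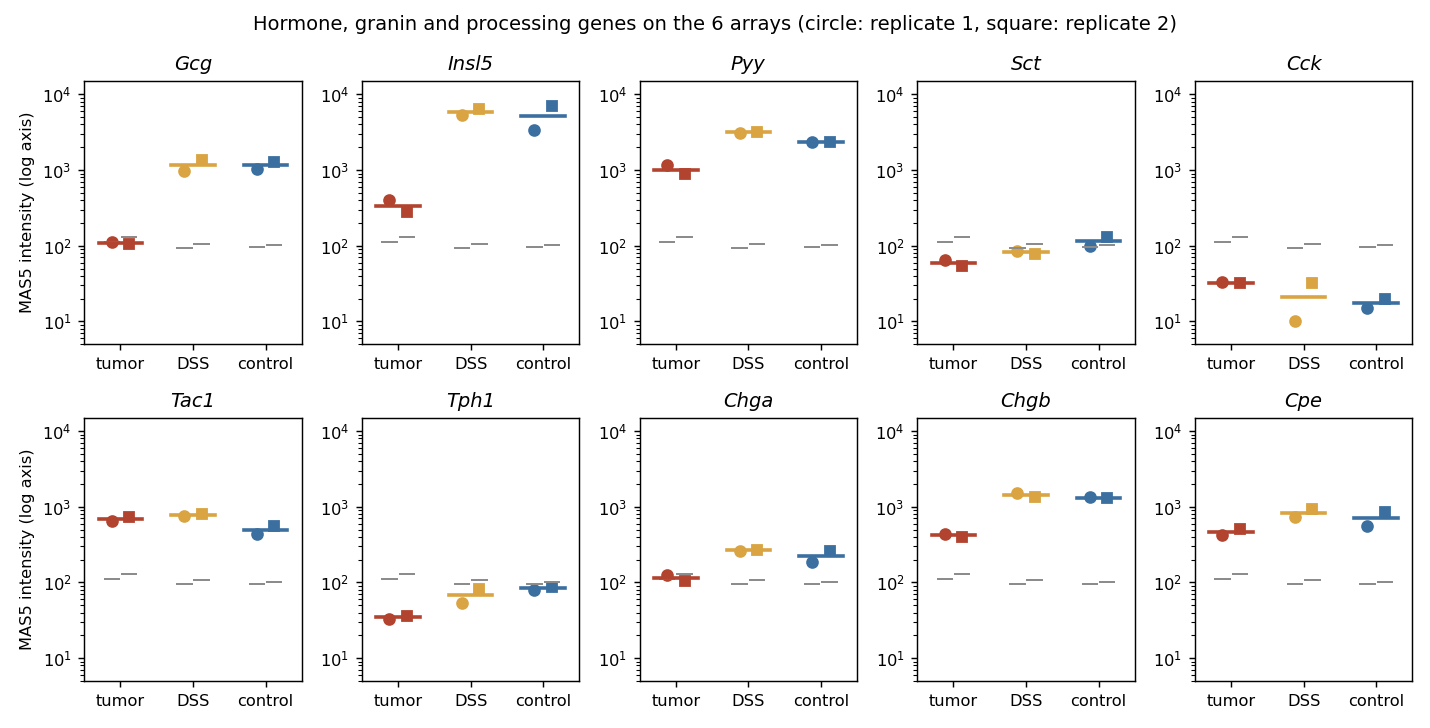
MAS5 intensity (log axis) of the 10 genes on the 6 arrays, with circles for replicate 1, squares for replicate 2, coloured bars for group means and grey dashes for the array medians. Gcg and Insl5 show the widest gap between the tumor arrays and the other 4, Tac1 shows no such gap, and Tph1 and Cck lie below the array median on all 6 arrays.

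Gcg, on chromosome 2 (62474530 to 62483653, GRCm38.p6), encodes proglucagon, which L cells cut into the glucagon-like peptides. Its intensity was 112 and 107 in tumor crypts, 958 and 1370.3 in DSS crypts and 1031 and 1278 in control crypts. Both tumor arrays lay far below the other 4, which overlapped between DSS and control. The tumor mean was lower by a factor of 10.6 against control crypts as against DSS crypts, and the log2 change was -3.20 ± 0.22 (SE) against control crypts (limma adjusted p = 9.37e-05) and -3.19 ± 0.22 against DSS crypts (limma adjusted p = 8.8e-05). The tumor values were close to the array medians of 112 and 131, a range in which an intensity can be largely background, so the factor is limited by that floor.

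Insl5 (chromosome 4, 103017872 to 103027271) encodes a peptide of the relaxin and insulin family that marks L cells of the distal colon in mice. It measured 401 and 279 in tumor crypts, 5278 and 6373 in DSS crypts, and 3339.55 and 6989.65 in control crypts. The tumor arrays again lay far below all others, while the control arrays spanned the DSS values and differed from each other by more than the DSS arrays did. The tumor mean was lower by a factor of 15.2 than that of control crypts and of 17.1 than that of DSS crypts, with log2 changes of -3.78 ± 0.33 (limma adjusted p = 0.000246) and -4.04 ± 0.33 (limma adjusted p = 0.000186). Set between arrays of the same number, the log2 difference of tumor and control crypts was -3.00 for replicate 1 and -4.56 for replicate 2, a spread that came mostly from the control arrays.

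Pyy (chromosome 11, 102106676 to 102107832) encodes peptide YY, which L cells release with the glucagon-like peptides and which slows gut motility. It measured 1152 and 880.2 in tumor crypts, 3105 and 3169 in DSS crypts, and 2337 and 2383 in control crypts. No group overlapped another, with DSS crypts the highest and tumor crypts the lowest. The log2 change was -1.21 ± 0.17 against control crypts (limma adjusted p = 0.00231) and -1.62 ± 0.17 against DSS crypts (limma adjusted p = 0.000554), which is a tumor mean lower by factors of 2.32 and 3.09. The tumor values stayed far above the array medians.

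The stretches of 250 bases before the start sites of Gcg and Insl5 are shown because these genes had the largest falls of the set. Promoter sequences are those of RefSeq on GRCm38.p6, where 9 of the 10 genes had an entry and Cpe had none in the table used. They were searched on both strands for 2 E-boxes bound by basic helix-loop-helix factors, the class of Neurog3 and Neurod1, and for the cAMP response element. The letters searched were CAGATG, which reads CATCTG on the other strand, CAGCTG and TGACGTCA, and no match overlapped another. The Gcg window, chr2:62483654-62483903 on the minus strand, held CAGATG beginning 139 and 83 bases upstream. The Insl5 window, chr4:103026729-103026978 on the minus strand, belongs to the inner of 2 RefSeq start sites and held CAGATG beginning 178 bases upstream, while the outer window held none of the motifs. Capitals mark the motif, and sequences run 5' to 3' on the gene's strand.
Gcg: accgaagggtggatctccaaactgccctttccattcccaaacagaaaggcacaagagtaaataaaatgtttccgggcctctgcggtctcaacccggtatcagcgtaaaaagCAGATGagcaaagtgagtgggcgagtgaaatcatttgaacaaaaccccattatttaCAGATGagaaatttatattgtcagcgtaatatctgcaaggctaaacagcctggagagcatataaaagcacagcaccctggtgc
Insl5: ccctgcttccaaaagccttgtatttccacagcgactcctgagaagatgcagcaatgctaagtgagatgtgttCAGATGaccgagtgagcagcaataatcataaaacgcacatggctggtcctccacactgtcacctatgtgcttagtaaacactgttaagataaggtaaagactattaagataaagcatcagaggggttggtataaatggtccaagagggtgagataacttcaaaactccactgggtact
CAGATG stood in a single window each of 5 of the 9 genes (Gcg, Insl5, Cck, Sct and Tac1), which had 12 windows in all. Counted by window and not by gene, it stood in 14.4% of the 32851 RefSeq windows of the same length. A match describes these letters only. Tac1, which was not called in either tumor comparison, held CAGATG, and neither Pyy window held any of the 3 motifs. A link between the motifs and the transcript levels was not tested.

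The granins Chga and Chgb encode acidic matrix proteins of dense-core granules, present in most enteroendocrine classes. Chgb (chromosome 2, 132781642 to 132795079) measured 437 and 403 in tumor crypts, 1519 and 1352 in DSS crypts, and 1347 and 1298 in control crypts. The tumor arrays lay well below the others, and arrays of a group lay close together. Its log2 change was -1.62 ± 0.16 against control crypts (limma adjusted p = 0.00045) and -1.73 ± 0.16 against DSS crypts (limma adjusted p = 0.000285).

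Chga (chromosome 12, 102554941 to 102565027) measured 126 and 104 in tumor crypts, 264 and 271 in DSS crypts, and 187 and 260.4 in control crypts. The tumor arrays were the lowest, at about the array median, and the control arrays stood farther apart than those of the other groups. The log2 change was -0.85 ± 0.23 against control crypts (limma adjusted p = 0.0327) and -1.11 ± 0.23 against DSS crypts (limma adjusted p = 0.0104). The call against control crypts ended when tumor replicate 2 was left out (adjusted p = 0.13), or control replicate 2 (0.197), DSS replicate 1 (0.0622) or DSS replicate 2 (0.0607), and that against DSS crypts ended without DSS replicate 1 (0.0622) or DSS replicate 2 (0.0602), all by limma.

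The granin promoters are shown because the 2 genes, which share a product family, differed in the motifs found. The Chga window, chr12:102554691-102554940 on the plus strand, held CAGCTG beginning 179 and 116 bases upstream. The Chgb window, chr2:132781392-132781641 on the plus strand, held the full cAMP response element beginning 72 bases upstream.
Chga: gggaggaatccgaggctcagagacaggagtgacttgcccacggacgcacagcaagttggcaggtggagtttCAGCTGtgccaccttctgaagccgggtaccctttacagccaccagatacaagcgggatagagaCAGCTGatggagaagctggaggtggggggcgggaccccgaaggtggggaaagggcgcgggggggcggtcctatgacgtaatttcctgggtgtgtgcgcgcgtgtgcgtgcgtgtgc
Chgb: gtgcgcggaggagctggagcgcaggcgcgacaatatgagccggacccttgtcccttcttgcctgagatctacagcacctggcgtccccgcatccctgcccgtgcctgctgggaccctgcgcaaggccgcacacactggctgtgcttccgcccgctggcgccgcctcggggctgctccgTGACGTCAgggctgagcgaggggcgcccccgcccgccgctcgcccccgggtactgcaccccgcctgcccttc
CAGCTG was found for 2 of the 9 genes (Chga and Sct) and in 13.0% of all windows, and the full cAMP response element for 1 of 9 and in 1.55% of all windows. The first of each pair counts genes, which had 12 windows in all, and the second counts windows.

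Cpe (chromosome 8, 64592542 to 64693109) encodes carboxypeptidase E, which trims basic residues from hormone intermediates and is also made in neurons and other secretory cells. Its main probe set measured 420.5 and 506 in tumor crypts, 723 and 937 in DSS crypts, and 560.4 and 854 in control crypts. The tumor arrays were lowest, and replicate 2 was above replicate 1 in every group. The log2 change was -0.57 ± 0.24 against control crypts (limma adjusted p = 0.129, not called) and -0.81 ± 0.24 against DSS crypts (limma adjusted p = 0.0398). The call against DSS crypts ended without tumor replicate 1 (limma adjusted p = 0.124), tumor replicate 2 (0.0595), DSS replicate 1 (0.0735) or DSS replicate 2 (0.212). With the 2 arrays of high poly-A signal set apart as a block, Cpe was called against control crypts too (-0.81, limma adjusted p = 0.0316). Smooth muscle markers had the same order of replicates as Cpe, with sums over 10 genes of 874 and 1788 in tumor crypts, 1842 and 3937 in DSS crypts, and 1409 and 4125 in control crypts, none of them at 0. All 6 tested genes of that list had log2 changes below 0 in both tumor comparisons, with medians of -1.35 against control crypts and -1.63 against DSS crypts. None was called, while with the block just named 4 were called lower against control crypts and 5 against DSS crypts, and without control replicate 1 the counts were 3 and 2. Their part in the Cpe values was not tested. The second Cpe probe set read 2.62 and 2.17 in tumor crypts, 2.39 and 15.9 in DSS crypts, and 2.00 and 13.7 in control crypts, far below the array medians, and was not tested.

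Sct and Cck, hormone genes best known from the upper small intestine, gave low signals. Sct, the secretin gene on chromosome 7 (141278329 to 141279174), measured 65.0 and 54.1 in tumor crypts, 84.8 and 78.8 in DSS crypts, and 98.1 and 132 in control crypts. The groups did not overlap and ran from tumor, the lowest, through DSS to control, but only the control arrays exceeded their medians. Its log2 change of -0.77 ± 0.29 between tumor and control crypts did not pass (limma adjusted p = 0.0921), nor did that of -0.37 ± 0.29 between tumor and DSS crypts (limma adjusted p = 0.386). The first of these was called with quantile normalization (-1.0, limma adjusted p = 0.041), and with a pseudocount at the median of all values it was -0.41. Cck, the cholecystokinin gene on chromosome 9 (121489824 to 121495694), read 32.8 and 32.2 in tumor crypts, 10.04 and 32.5 in DSS crypts, and 15.2 and 20.1 in control crypts. All 6 values lay below the array medians, so Cck was not tested. Both tumor arrays were above both control arrays, and of the DSS arrays one was the lowest of all and the other close to the tumor arrays.

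Tac1 (chromosome 6, 7555061 to 7562978) encodes the precursor of substance P and neurokinin A, made by enterochromaffin cells and by enteric neurons. It measured 655 and 736 in tumor crypts, 751 and 806 in DSS crypts, and 438 and 556 in control crypts. Unlike the other tested members, it was lowest on the control arrays, and none of the 3 groups overlapped. The log2 change was 0.48 ± 0.18 between tumor and control crypts (limma adjusted p = 0.0975) and -0.16 ± 0.18 between tumor and DSS crypts (limma adjusted p = 0.558), and neither passed. All 17 measured markers of enteric neurons and glia lay below the array median on all 6 arrays, none of them at 0, and their sums were 239 and 437 in tumor crypts, 302 and 531 in DSS crypts, and 335 and 458 in control crypts. Both these sums and Tac1 were higher in replicate 2 of every group. Vip, a neuropeptide gene outside that list, had the same order and exceeded the array median on replicate 2 of the DSS and control groups. The part of neurons and glia in the Tac1 values was not tested.

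Tph1 (chromosome 7, 46644641 to 46672537) encodes the rate-limiting enzyme of serotonin synthesis in enterochromaffin cells. It read 33.4 and 36.0 in tumor crypts, 53.7 and 82.8 in DSS crypts, and 79.5 and 87.0 in control crypts. The tumor arrays lay below the others, while DSS and control overlapped. All values were below the array medians, so Tph1 was not tested in the fit above. When every gene was fitted without the filter on low values, its log2 change between tumor and control crypts was -0.94 ± 0.30 and did not pass (limma adjusted p = 0.0899). Mast cells also make Tph1 in the mouse. Of 12 measured mast cell markers 8 lay below the array median on every array, none was at 0, and their sums were 745 and 1011 in tumor crypts, 481 and 664 in DSS crypts, and 571 and 536 in control crypts. The tumor sums were the highest, but the markers did not all move alike. In the fit without the filter, most untested markers had log2 changes above 0 between tumor and control crypts. These were Hdc (2.56), Mcpt1 (1.6), Cpa3 (1.17), Gata2 (0.84), Ms4a2 (0.62), Fcer1a (0.58), Mcpt4 (0.55) and Tpsb2 (0.45). Those of Cma1 (-0.44) and Tpsab1 (-0.08) lay below 0. The 2 tested markers, Mcpt2 and Kit, went in opposite directions. Mcpt2, a mast cell protease, read 198 and 234 in tumor crypts, 25.8 and 66.2 in DSS crypts, and 31.1 and 44.9 in control crypts, and exceeded the array median on the tumor arrays only. Kit, the receptor of stem cell factor, measured 168 and 208 in tumor crypts, 286 and 382 in DSS crypts, and 325 and 316 in control crypts. The part of mast cells in the Tph1 values was not tested.

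**Figure D2:**
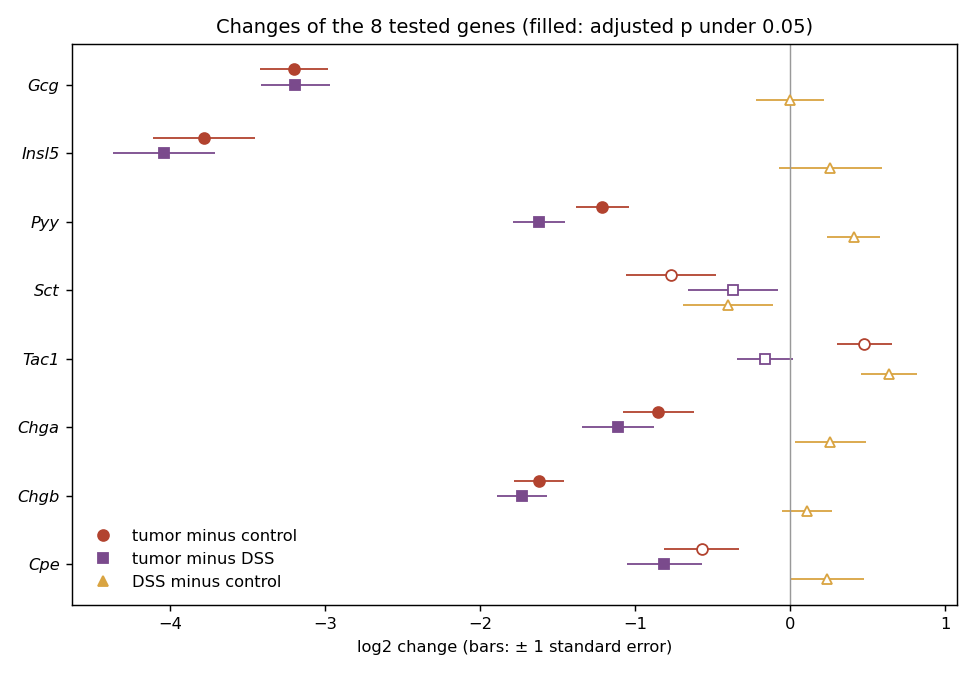
Log2 changes of the 8 tested genes with bars of 1 standard error, for tumor minus control (circles), tumor minus DSS (squares) and DSS minus control (triangles), filled where the limma adjusted p was under 0.05. Changes in the tumor comparisons run from -4.04 for Insl5 against DSS crypts to 0.48 for Tac1 against control crypts, and no DSS minus control value is filled.

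Within an array, the members did not move by the same amount. With each gene set against Chgb on the same array, and the control mean taken as 0 on the log2 scale, Insl5 stood at -1.97 and -2.36 on the tumor arrays, -0.07 and 0.37 on the DSS arrays and -0.56 and 0.56 on the control arrays. Gcg stood at -1.61 and -1.56 on the tumor arrays, -0.45 and 0.22 on the DSS arrays and -0.18 and 0.18 on the control arrays. For both Insl5 and Gcg the tumor arrays lay below every other array, so their transcripts were lower by more than those of Chgb. Pyy kept close to Chgb, at 0.54 and 0.26 on the tumor arrays, 0.20 and 0.39 on the DSS arrays and -0.04 and 0.04 on the control arrays. Tac1 was at 1.96 and 2.23 on the tumor arrays, 0.39 and 0.66 on the DSS arrays and -0.19 and 0.19 on the control arrays. Chga, at 0.83 and 0.69 on the tumor arrays, 0.04 and 0.24 on the DSS arrays and -0.25 and 0.25 on the control arrays, was thus lower by less than Chgb in tumor crypts. Set against Chga in place of Chgb, Pyy stood at -0.29 and -0.43 on the tumor arrays. The sign for Pyy in tumor crypts thus depended on the granin chosen. Gcg (-2.44 and -2.25) and Insl5 (-2.81 and -3.05) again lay below every other array. A factor common to all probe sets of an array cancels in these differences, apart from the pseudocount. Low intensities such as those of Chga and Gcg in tumor crypts understate a fall. For Gcg this makes the difference from Chgb smaller, while for Chga it can raise the tumor values above 0. They are a description of 2 arrays a group, without a test.

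**Figure D3:**
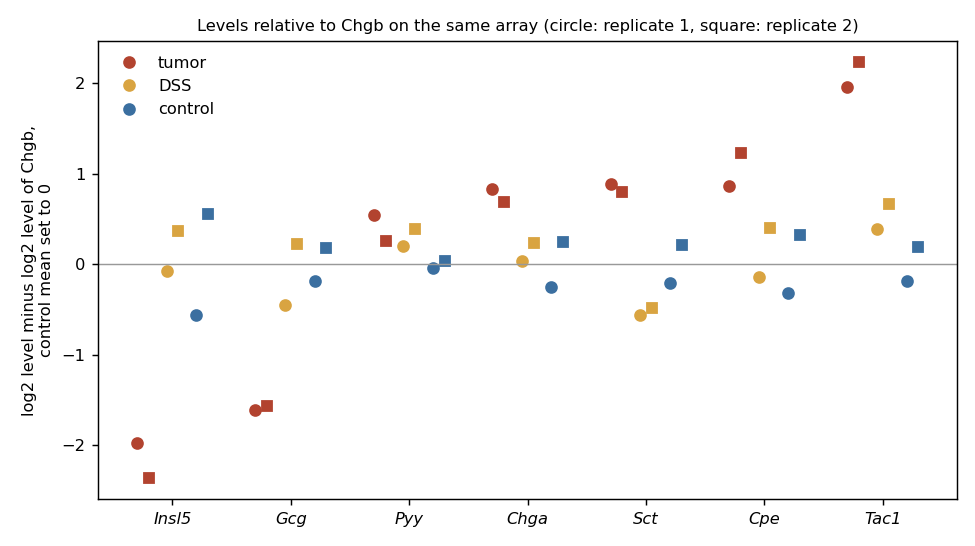
Log2 level of 7 genes minus that of Chgb on the same array, shifted so that the control mean is 0, with circles for replicate 1 and squares for replicate 2. Insl5 and Gcg on the tumor arrays lie between -2.36 and -1.56, Pyy lies within 0.54 of 0 on all 6 arrays, and Tac1 reaches 1.96 and 2.23 on the tumor arrays.

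No hormone, granin or processing gene changed by the test between DSS crypts on day 2 and control crypts. None of the 8 tested members was called, and none of the 7456 genes was (0.0%), while 189 genes (2.53%), Pyy and Tac1 among them, had an unadjusted limma p under 0.05. Tac1 had the largest difference of the set, a log2 change of 0.64 ± 0.18 (unadjusted p = 0.00795, limma adjusted p = 1.0), with a mean higher by a factor of 1.57 in DSS crypts. Pyy was higher in DSS crypts by 0.41 ± 0.17 (unadjusted p = 0.0464, limma adjusted p = 1.0), and by 0.41 for each replicate number. The DSS arrays lay above the control arrays for 4 members (Pyy, Tac1, Chga and Chgb), where 12.8% of all genes did so, and below them for Sct, where 13.7% did so. Gcg was level at -0.00 ± 0.22, and Insl5 at 0.26 ± 0.33 took either sign as arrays were left out. The median log2 change of the tested members was 0.25, against 0.004 for all genes. Standard errors of 0.16 to 0.33 mean that modest differences at day 2 were not detectable with 2 arrays a group.

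Profiles over the 6 arrays were compared by the root mean square difference of log2 values, each profile centred on its own mean. Among the members, Pyy and Chgb were the closest pair (0.20), followed by Chga and Cpe (0.23) and Pyy and Chga (0.25), while Gcg and Insl5 were 0.44 apart and Insl5 and Tac1 the farthest (1.95). Among all other tested genes, those nearest to Gcg were Tgm3 (0.20), Resp18 (0.21) and Scin (0.23). The 3 nearest to Pyy were Atp2c2 (0.07), Selenom (0.09) and Rasl2-9 (0.10), and for Chga they were Nek3 (0.05), Mt1 (0.06) and Mcoln2 (0.07). With 6 arrays in 3 groups the measure mostly reflects the size of the group differences, and small values are common for genes of small change.

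Other genes of the enteroendocrine programme had calls in both directions in tumor crypts. A gene above the array median in 1 group only, or on no tumor array, entered the test through the arrays where it was high, so its call was favoured by the filter, and such genes are pointed out below. Among 18 other gut hormone genes, 17 had a probe set and 4 were tested, with a median log2 change of -1.20 against control crypts. Ppy, the pancreatic polypeptide gene, was the only call, in both tumor comparisons, and exceeded the array median on no tumor array. It measured 81.4 and 54.0 in tumor crypts, 231 and 263 in DSS crypts, and 198 and 373 in control crypts, with log2 changes of -1.78 ± 0.32 against control crypts (limma adjusted p = 0.00612) and -1.65 ± 0.32 against DSS crypts (limma adjusted p = 0.00755).

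Of 24 transcription factor genes of endocrine differentiation, 19 had a probe set and 6 were tested. The median log2 change was -0.02 against control crypts, with 2 higher and 2 lower at a limma adjusted p under 0.05. Neurod1, a basic helix-loop-helix factor of enteroendocrine maturation that exceeded the array median on no tumor array, measured 46.0 and 35.2 in tumor crypts, 109 and 127 in DSS crypts, and 96.1 and 169 in control crypts. Its log2 change of -1.33 ± 0.33 (limma adjusted p = 0.0231) was no longer called without tumor replicate 2 (adjusted p = 0.0779) or control replicate 2 (0.169), and against DSS crypts it was -1.22 ± 0.33 (limma adjusted p = 0.0283), not called without tumor replicate 2 (0.0876), DSS replicate 1 (0.102) or DSS replicate 2 (0.15). Isl1, a LIM-homeodomain factor of hormone cells, was higher in tumor crypts, at 974 and 896, against 160.1 and 209 in DSS crypts and 133 and 187 in control crypts. Its log2 change was 2.44 ± 0.22 against control crypts (limma adjusted p = 0.000303), and its other probe set was also higher in tumor crypts. Sox4, a high-mobility-group factor with roles in endocrine progenitors and in many other cells, measured 8699 and 8777 in tumor crypts, 1178 and 1249 in DSS crypts and 2028 and 1553 in control crypts. It rose by 2.29 ± 0.17 on the log2 scale (limma adjusted p = 0.000139), and all of its other probe sets were higher on both tumor arrays than on the other 4. Foxa2, a winged-helix factor of gut epithelium, had a log2 change of -0.56 ± 0.16 (limma adjusted p = 0.0415), a call that leaving out any array ended (adjusted p of 0.0789 to 0.144). Against DSS crypts the list had 2 higher (Isl1 and Sox4) and 1 lower (Neurod1).

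**Figure D4:**
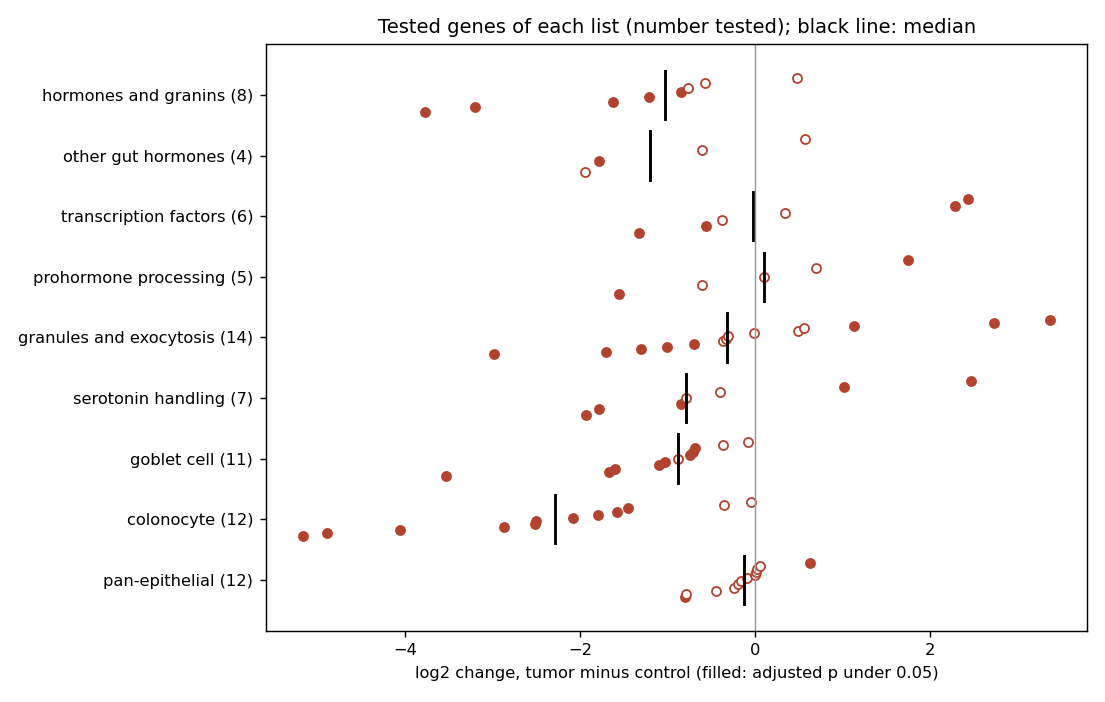
Log2 change between tumor and control crypts of every tested gene in each list, filled where the limma adjusted p was under 0.05, with the list's median as a black line and the number tested in parentheses. Hormones and granins have a median of -1.03, transcription factors -0.02 with calls on either side of 0, and colonocyte genes -2.29.

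Genes for the cutting of hormone precursors had 1 call in each direction, and both genes passed the filter through the arrays where they were high. Of 12 processing genes 11 had a probe set and 5 were tested, with a median log2 change of 0.11 against control crypts. Scg5, a chaperone of the convertase made from Pcsk2, measured 29.7 and 23.6 in tumor crypts, 123 and 161 in DSS crypts, and 79.6 and 156 in control crypts, with a log2 change of -1.55 ± 0.36 against control crypts (limma adjusted p = 0.0176). This call ended without tumor replicate 2 (limma adjusted p = 0.0543) or control replicate 2 (0.132). Pcsk6, a convertase of many growth factor precursors, was higher in tumor crypts, at 203 and 275, against 50.8 and 65.1 in DSS crypts and 51.3 and 64.3 in control crypts (log2 change 1.75 ± 0.29, limma adjusted p = 0.00426), and only the tumor arrays exceeded their medians. For Scg5 no tumor array did.

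Of 37 granule and exocytosis genes, 34 had a probe set and 14 were tested. Against control crypts 3 were called higher and 5 lower, with a median of -0.32, and against DSS crypts 3 were called higher and 4 lower. All 3 called higher (Stx1a, Cadps and Syt11) exceeded the array median on the tumor arrays only, and 4 of the 5 and 3 of the 4 called lower did so on no tumor array, so these counts do not describe the list as a whole. Resp18, a granule protein of neuroendocrine cells, measured 12.3 and 21.5 in tumor crypts, 246 and 324 in DSS crypts, and 191 and 338 in control crypts. It fell by 2.99 on the log2 scale (SE 0.33, limma adjusted p = 0.00067), to values far below the array medians. Sytl4, a Rab effector that docks granules, measured 82.0 and 52.8 in tumor crypts, 253 and 295 in DSS crypts, and 234 and 279 in control crypts (log2 change -1.70 ± 0.25, limma adjusted p = 0.00262). The granin-related gene Scg2 was lower by a log2 change of -1.66 ± 0.30 against DSS crypts (limma adjusted p = 0.00578). Among the 3 that passed the filter through the tumor arrays alone, Stx1a, a syntaxin of the release machinery, was at 275 and 552 in tumor crypts, 42.9 and 61.6 in DSS crypts, and 45.8 and 40.9 in control crypts (log2 change 2.74 ± 0.36, limma adjusted p = 0.00149). Cadps, another of these 3, which primes dense-core granules for release, was at 268 and 1194 in tumor crypts, 33.4 and 50.8 in DSS crypts, and 24.5 and 57.5 in control crypts, with a log2 change of 3.38 ± 0.61 (limma adjusted p = 0.00648) that was 2.34 without tumor replicate 2 and up to 4.43 over the arrays left out.

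All 7 measured genes of serotonin handling, of 10 listed, were tested, and 2 were called higher and 3 lower in each tumor comparison, with a median of -0.79 against control crypts. Slc6a4, the serotonin reuptake transporter, measured 66.5 and 60.7 in tumor crypts, 401 and 410.1 in DSS crypts, and 269 and 317 in control crypts (log2 change -1.93 ± 0.20, limma adjusted p = 0.000568). Maoa, which degrades serotonin in epithelium and other tissues, had a log2 change of -1.78 ± 0.21 (limma adjusted p = 0.000886). Slc18a1, the transporter that loads serotonin into enterochromaffin granules, was higher in tumor crypts, at 239.7 and 428, against 52.5 and 55.5 in DSS crypts and 47.0 and 39.6 in control crypts (log2 change 2.47 ± 0.32, limma adjusted p = 0.00149), and it exceeded the array median on the tumor arrays only, as Slc6a4 did on the other 4 arrays only. Gch1, the entry enzyme to the cofactor of Tph1, rose by 1.02 ± 0.21 (limma adjusted p = 0.0106), a call that ended without control replicate 2 (0.0663).

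Of 20 receptors that sense nutrients or regulate hormone release, 12 had a probe set and 2 were tested. Ffar2, a short-chain fatty acid receptor of L cells and leukocytes that exceeded the array median on no tumor array, measured 93.3 and 106 in tumor crypts, 186 and 223 in DSS crypts, and 226 and 162 in control crypts. Its log2 change was -0.84 ± 0.25 (limma adjusted p = 0.0423), and the call ended whichever array was left out (adjusted p of 0.0624 to 0.189). All 16 measured receptors for the hormones themselves, of 20 listed, were below the array median on every array. In the comparison of DSS with control crypts, no gene of any of these lists was called.

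Markers of other crypt cells moved with the hormone genes. In tumor crypts 10 of 12 tested colonocyte markers fell against control crypts, with a median log2 change of -2.29, and 8 of 11 goblet cell markers fell, with a median of -0.88. Without control replicate 1 the goblet count was 3. General epithelial markers had 1 higher and 1 lower of 12 and a median of -0.12, and their sums were 78660.5 and 75779 in tumor crypts, 92653.5 and 80563 in DSS crypts, and 83780.4 and 76202 in control crypts. The summed intensity of the 10 hormone and granin genes was 3434 and 3138 in tumor crypts, 12746 and 14473.5 in DSS crypts, and 9433 and 13859 in control crypts, which makes the tumor arrays the lowest by a wide margin while epithelial sums overlapped between tumor and control. Insl5 and Pyy held most of the DSS and control sums, at 6989.65 and 2383 on control replicate 2. The sums thus mainly follow these genes, while Tac1 and Cck were higher in tumor than in control crypts. Fibroblast markers summed to 2047 and 10385 in tumor crypts, 3685 and 6326.5 in DSS crypts, and 2789 and 5026 in control crypts, so the tumor arrays spanned the other groups. Of 12 tested fibroblast genes 2 were called higher and none lower against control crypts, with a median of -0.48. Fbln1, 1 of the 2, exceeded the array median on the tumor arrays only. Over all genes tested, 12.8% were called higher and 9.74% lower in that comparison. The higher calls among fibroblast and general epithelial markers lay near that share. The absence of lower fibroblast calls did not hold without tumor replicate 2, the array with the highest sum. With all arrays kept, it also did not hold under quantile normalization, median centring, a pseudocount at the median or the replicate number as a block. Smooth muscle genes, whose sums are given with Cpe, had a median of -1.35, with 0 of 6 called. Goblet cell sums were 55021 and 39063 in tumor crypts, 92409.9 and 79554 in DSS crypts, and 87805 and 78330.5 in control crypts. No marker in these lists was at 0, and the part of other cell types in the hormone results was not tested.

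**Figure D5:**
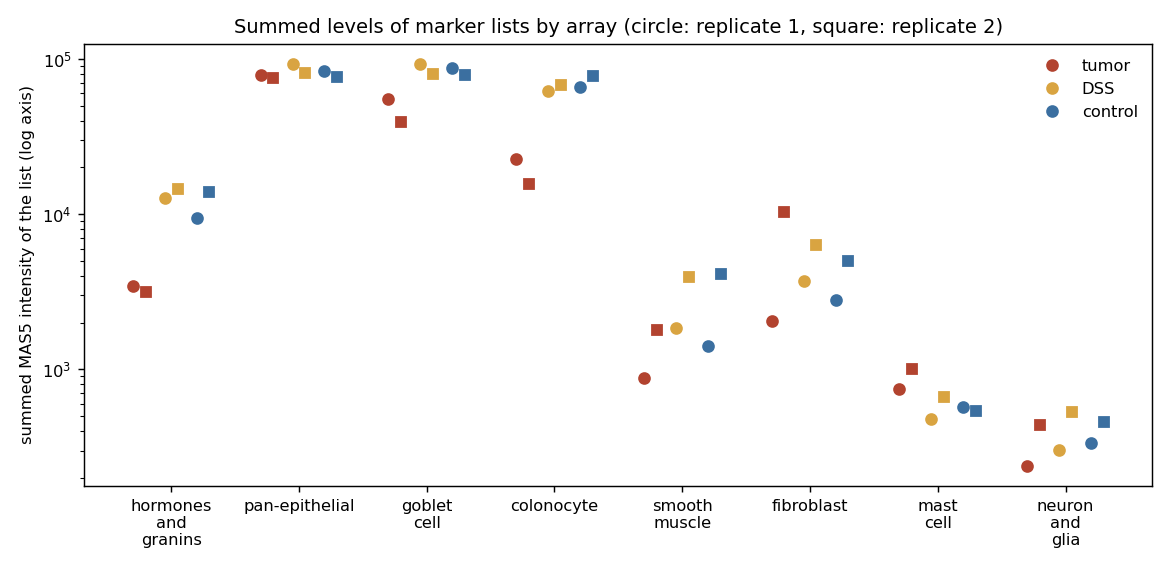
Summed MAS5 intensity (log axis) of each marker list on the 6 arrays, with circles for replicate 1 and squares for replicate 2. Hormone, goblet and colonocyte sums are lowest on both tumor arrays, general epithelial sums lie between 75779 and 92653.5 on all 6, and smooth muscle sums are higher in replicate 2 of every group.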

How the data were processed

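The authors deposited a linear signal intensity for each probe set, made with MAS5 per the submitters' processing notes. Its version is not given in the sources used here. Each array as deposited had a trimmed mean near 500.2 (2% of probe sets left out at each end). The table of 22690 probe sets held no detection calls. It contained 64 controls, which were set aside. In the platform annotation 20380 of the others had a single gene symbol, 691 had several and 1555 had none. The RefSeq table of GRCm38.p6, which gave current symbols and positions, held the gene identifiers of 99.9% of those with a single symbol.

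Intensities were transformed to log2 of the value plus 17.77, the 25th percentile of all values, so changes of low genes are understated. A probe set was kept if it exceeded the median of at least 2 arrays (12146 did so), that of the highest mean log2 value stood for its gene, and 7456 genes were fitted over all 6 arrays with limma 3.58.1 in R 4.3.3 (lmFit, contrasts, eBayes with an intensity trend). Benjamini-Hochberg adjustment ran over all genes tested, 2-sided, with 0.05 as the threshold. No further normalization was applied. The number of arrays, 2 a group, limits the precision, and p-values measure the spread between these pools.

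The members, the gene lists and the tests were chosen with earlier results of these data known. Every member is named. From each list, genes called in a comparison are named up to the 4 of smallest p, and for Chga, Gcg and Pyy the 3 genes of nearest profile. Alternatives covered the scaling, the pseudocount, the filter, how a gene's probe sets were combined, the trend in the variance, the samples in the fit, blocks and each array left out. Python 3.11.15 with matplotlib 3.10.9 drew the figures.

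Arrays of the same number deviated together with a correlation over the 7456 genes of 0.076 for tumor and control, 0.441 for tumor and DSS and 0.448 for DSS and control. With 2 numbers this does not establish that the numbers pair the samples, and no block is in the fit reported.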

Additional observations from a re-analysis of the deposited data

How the results depend on the processing

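Falls of Gcg, Insl5, Pyy and Chgb in tumor crypts kept their direction and call in all 20 settings (as reported and 19 alternatives) of both tumor comparisons, with log2 changes against control crypts of -3.40 to -2.53 for Gcg, -4.31 to -3.25 for Insl5, -1.40 to -1.02 for Pyy and -1.73 to -1.44 for Chgb. Members called numbered 4 to 6 in each tumor comparison over all settings, and with single arrays left out 4 to 5 for tumor minus control, 4 to 6 for tumor minus DSS and 0 for DSS minus control. Chga against control crypts was also not called without the filter on low values (limma adjusted p = 0.0699) or with 2 groups only (0.0695). Under the filter at the 75th percentile, Chga and Sct were not tested. Sct against control crypts was called without the intensity trend (limma adjusted p = 0.0324). Cpe against DSS crypts was not called without the filter (0.0682) or without the trend (0.0559).

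With the replicate number as a block (replicate block), members called were 6, 6 and 0 for tumor minus control, tumor minus DSS and DSS minus control, Cpe joining the first at a limma adjusted p of 0.0445, and genes called overall were 1944, 2208 and 0. With that block 5 of the 6 tested smooth muscle genes were called lower in each tumor comparison, against 0 as reported. With only 2 groups and the block, an alternative chosen after seeing the data with 1 residual degree of freedom, DSS minus control had 1 member called (Tac1, limma adjusted p = 0.017) among 124 genes, and tumor minus DSS had 2940 genes.

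In DSS minus control, where no member was called as reported, the log2 change of Gcg turned to 0.01 with quantile normalization and 0.00 with median centring, and ranged from -0.26 to 0.25 with single arrays left out. Those of Insl5 and Cpe ranged from -0.27 to 0.79 and from -0.05 to 0.54.

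Genes called overall moved by more than 1.5 times with the filter at the 75th percentile (1099 for tumor minus control and 1260 for tumor minus DSS), without tumor replicate 2 (955 and 1262), without control replicate 2 (844 for tumor minus control), without DSS replicate 1 (895 for tumor minus DSS, 2 for DSS minus control) and without DSS replicate 2 (1091 for tumor minus DSS). The causes of these shifts were not tested, apart from the 4160 genes left by the stricter filter. Low signal limits Tph1, Cck and Sct, and 2 arrays a group limit the comparison of DSS with control crypts.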

Other observations

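Hormone genes below the filter on low values include some that were higher in tumor crypts, and those given here were chosen after their values were seen. Iapp, the gene of islet amyloid polypeptide, read 57.1 and 84.2 in tumor crypts, 13.3 and 13.1 in DSS crypts, and 16.5 and 13.7 in control crypts on the probe set of highest mean log2 level. Another of its probe sets read 94.7 and 90.0 in tumor crypts, 5.62 and 15.1 in DSS crypts, and 8.35 and 2.29 in control crypts. A further probe set differed less, at 29.4 and 33.9 in tumor crypts, 10.2 and 23.5 in DSS crypts, and 9.94 and 19.5 in control crypts. On the last, tumor crypts (25.4 and 22.8) overlapped control crypts (8.64 and 24.1), and DSS crypts read 2.87 and 19.5. In a fit of all genes without the filter, the log2 change of the probe set of highest mean log2 level was 1.41 against control crypts (limma adjusted p = 0.0197) and 1.50 against DSS crypts (limma adjusted p = 0.0143). Nts, the neurotensin gene, read 54.8 and 66.2 in tumor crypts, 17.8 and 6.95 in DSS crypts, and 9.08 and 14.9 in control crypts, with log2 changes of 1.40 against control crypts (limma adjusted p = 0.0251) and 1.40 against DSS crypts (limma adjusted p = 0.022) in the same fit. All of these intensities lay below the array medians.

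Vip, a neuropeptide gene of the enteric nervous system, differed by replicate number and by group, at 1.67 and 14.7 in tumor crypts, 25.7 and 260.2 in DSS crypts, and 14.5 and 269 in control crypts, replicate 1 first in each pair. Replicate 2 was higher in every group, and within each number the tumor array was the lowest. Its log2 change of -1.94 ± 1.09 (SE) between tumor and control crypts did not pass (limma adjusted p = 0.239).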
